A study of Mus musculus with 6 samples.

Results

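Heat shock proteins and chaperonins were compared between 2 populations of mouse natural killer (NK) cells, lymphocytes that kill infected and transformed cells. The genes were taken by symbol from the deposited table: those starting with Hspa, Hspb, Hspd, Hspe, Hsph, Hsp90, Dnaja, Dnajb or Dnajc, and Tcp1 with Cct2 to Cct8, leaving out Hspbap1, whose name only resembles the family. This gave 54 of the 8520 genes in the table, beside 83 protein-coding RefSeq genes whose symbols begin in these ways. Of these 54 genes, 8 are Hsp70 genes, 1 is the Hsp110 gene Hsph1, 3 are Hsp90 genes, 2 encode the mitochondrial chaperonin Hsp60 and its lid Hsp10, 4 are Dnaja, 9 Dnajb and 19 Dnajc genes, and 8 encode the CCT chaperonin. The Hsp70 count goes by symbol and holds Hspa4 and Hspa4l, which by sequence belong with Hsp110. Of the 9 RefSeq genes whose symbols begin with Hspb, which are small heat shock genes and others such as the exchange factor gene Hspbp1, 0 were in the table, nor were the inducible Hsp70 genes Hspa1a and Hspa1b, and they are not analysed here.

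Both populations came from the spleens of C57BL/6Ncr mice (strain label C57BL/6), for which the labels name no drug, infection or gene change, aged 6 to 8 weeks, 20 mice in all. After magnetic enrichment and blocking of Fc receptors with the antibody 2.4G2, cells were sorted as CD3- NK1.1+ cells that were either Ly49G+ and Ly49C/I- or Ly49G- and Ly49C/I+. These are called Ly49G+ and Ly49I+ below. Ly49 receptors bind major histocompatibility complex class I molecules. Each population has 3 libraries, which the labels call biological replicates without saying which mice fed which. The p-values therefore rest on the spread among libraries, which may be technical. Levels are given as CPM, counts per 1000000 reads of the library, and differences as log2 of Ly49G+ over Ly49I+ with their standard error.

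Chaperones bind unfolded stretches of other proteins and release them to fold. Hsp70 proteins do so in cycles of ATP hydrolysis that J proteins (the Dnaj families) start and exchange factors such as Hsp110 end. Hsp90 takes over kinases and receptors late in folding, and the ring-shaped chaperonins enclose their clients, mitochondrial matrix proteins for Hsp60 and actin and tubulin among others for CCT. In the cytosol many of these genes answer to the heat shock factor Hsf1, which binds repeats of GAA and TTC called heat shock elements, and in the endoplasmic reticulum (ER) to the unfolded protein response, one of whose promoter elements is the ER stress element.

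Promoters were read from the RefSeq table of build GRCm38.p6, 250 bases before to 50 after each annotated start, which held 43 of the 54 genes. The 11 without an entry are Cct4, Dnajc11, Dnajc18, Dnajc2, Dnajc30, Dnajc5, Hsp90aa1, Hsp90ab1, Hspa13, Hspa8 and Hspa9. Heat shock element letters of 3 units (GAANNTTC followed by NN and GAA, or TTCNNGAA followed by NN and TTC, with N for any base; the 2 forms together cover both strands) were found in 4 of these 43 genes, 9.3%, against 178 of all 27025 genes with a promoter entry, 0.659%. Among the 6842 genes of the deposited table with a promoter entry the share was 0.628%. The 4 member genes are shown because they hold the longest run of the element. Hspd1 and Hspe1 are divergent neighbours on chromosome 1 and share 1 site, given for each on its own coding strand. Capitals mark the matching letters, which in this pair are 2 overlapping matches. Positions are relative to the starts in the promoter table, so that the shared site lies before a start of each gene but inside the longest annotated span of Hspd1, and the Hsph1 match lies after its start:
Hspd1, chr1:55088053-55088082, minus strand: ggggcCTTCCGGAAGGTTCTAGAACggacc
Hspe1, chr1:55088053-55088082, plus strand: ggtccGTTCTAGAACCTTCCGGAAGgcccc
Hsph1, chr5:149636279-149636308, minus strand: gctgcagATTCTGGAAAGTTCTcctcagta
Dnajb6, chr5:29735844-29735873, plus strand: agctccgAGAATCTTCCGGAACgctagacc
The shorter 2-unit letters (GAANNTTC or TTCNNGAA), which also lie inside every 3-unit match, were in 12 of 43 genes, 27.9%. They were in 17% of all genes and in 13.7% of the 6842 genes of the deposited table. The ER stress element letters are CCAAT and CCACG with 9 bases between them, on either strand. They were in 37 of all 27025 genes, 0.137%, and in 0.19% of the 6842 genes of the deposited table. Among the members they were found in 3 of 43 genes, 7.0%. All 3 belong to ER members, and Hsp90b1 has 2 sites, the second of them on the opposite strand; they are shown with the letters in capitals because such a match was in few of all promoters:
Hspa5, chr2:34772020-34772049, plus strand: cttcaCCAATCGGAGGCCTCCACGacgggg
Hsp90b1, chr10:86705632-86705661, minus strand: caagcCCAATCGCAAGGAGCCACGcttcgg
Hsp90b1, chr10:86705527-86705556, minus strand: gagtgCGTGGTGAGGCACGATTGGtgagtt
Dnajc3, chr14:118937822-118937851, plus strand: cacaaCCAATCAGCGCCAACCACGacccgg
These are matches of letters, not measured binding. No member with either long motif was past the threshold between the populations in the fit without the replicate block, and Hspe1 alone was with it; the values of each are given with its class.

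Library totals ran from 33599679 to 40892154 reads, and the smallest count of a member in any library was 164 reads. The sort was visible in the receptors: Klra7, which encodes Ly49G, ran from 917.1 to 1037 CPM in Ly49G+ and from 10.8 to 11.7 in Ly49I+ libraries, and Klra9, which encodes Ly49I, from 74.1 to 84.1 and from 990.2 to 1194. All 14 NK cell markers looked for were listed, Ncr1 among them at 1906 to 2229 CPM, and 5 of them were called: Itgam, Tbx21, Prf1 and Gzmb higher in Ly49I+ and Eomes higher in Ly49G+. Markers of other cells differed as well. Of 17 T cell markers looked for 10 were listed. Of these, 6 were called higher in Ly49G+: Cd3d, Cd3e, Cd3g, Trac, Trdc and Cd28 (Cd3e 9.27 to 18.5 against 0.592 to 1.22 CPM). Not in the table were Trgc1, Cd4, Cd8a, Cd8b1, Cd5, Cd6 and Themis. Of 26 monocyte, macrophage and dendritic cell markers looked for 14 were listed, without Adgre1, Cd14, Fcgr1, C1qa and S100a8 among others. Of these 14, 10 were called higher in Ly49I+ (Csf1r 1.53 to 5.94 against 31.7 to 138.1 CPM), beside 1.77% of all genes. Most of the 10 could pass the table's low-count filter, described under processing, only through Ly49I+ libraries (Treml4 0.432 to 1.34 against 10.8 to 52.5 CPM). Their direction was therefore fixed by their being listed. In the same way Cd3d, Cd3e and Trac could pass only through Ly49G+ libraries. Summed over each list, T cell markers held 859.9 to 934.1 CPM in Ly49G+ and 700.8 to 745.7 in Ly49I+ libraries. The highest of them were Cd247, at 246.4 to 291.8 CPM and not called, and Trdc, at 156.2 to 233.7 CPM. Cd3d, Cd3e and Cd3g together held only 48.8 to 79.8 CPM in Ly49G+ and 16.8 to 18.6 in Ly49I+ libraries. The myeloid list held 1127 to 1252 and 1271 to 2396 CPM. Most of that was Itgax in all libraries but Ly49I+ replicate 2, and NK cells also express Itgax. Unlike the rest of the list, Itgax lay higher in Ly49G+, at 1037 to 1120 CPM against 827.0 to 945.5 CPM without overlap. Its difference was 0.26 ± 0.08 and was not called. Without it the other 13 held 90, 104.2 and 132.0 CPM in Ly49G+ and 443.7, 1464 and 354.0 CPM in Ly49I+ replicates 1, 2 and 3. Of the B cell list 5 of 15 were listed, at summed levels of 325.8 to 479.2 and 219.5 to 521.3 CPM, and 1 was called higher in Ly49G+. In the table were 0 of 9 erythroid and 0 of 6 platelet markers and 1 of 11 stromal and endothelial markers, which was not called. With the replicate number as a block, described below, the calls higher in Ly49G+ were 1 NK, 7 T cell, 2 B cell and 1 myeloid marker. The myeloid marker was Itgax. Those higher in Ly49I+ were 5 NK, 0 T cell, 0 B cell and 12 myeloid markers. All genes stood at 5.69% and 5.96% in that fit. Whether these marker transcripts came from other cells was not tested. Nor was their part, or that of the NK marker differences, in the chaperone values.

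The differences of the chaperone genes lay mostly on the Ly49G+ side, and no single gene passed the threshold in the limma test (adjusted p of 0.05 over all 8520 genes, Benjamini-Hochberg). Their summed level was 9455, 9759 and 9123 CPM in Ly49G+ replicates 1, 2 and 3 and 9054, 8582 and 8545 in Ly49I+ replicates 1, 2 and 3. Every Ly49G+ library was above every Ly49I+ library, by a margin as small as that between Ly49G+ replicate 3 and Ly49I+ replicate 1. In bulk RNA, fewer cells of a type and less RNA per cell cannot be told apart. Of the 54 genes 0 were called, where 306 of all genes were, 3.59% (1.82% higher in Ly49G+ and 1.77% in Ly49I+). At an unadjusted p under 0.05 there were 10 with higher values in Ly49G+ and 3 in Ly49I+, 18.5% and 5.56% of members, against 9.59% and 10.2% of all genes. The median difference over the members was 0.095, beside -0.016 over all genes, and 36 of 54 differences were positive, 66.7% beside 46.5%. Leaving out 1 library turned the sign of 2 to 6 members. Without Ly49I+ replicate 2, the library with the most myeloid marker RNA, the members' median was 0.060. It was 0.075 without Ly49G+ replicate 2 and 0.116 without Ly49G+ replicate 3. Whether myeloid RNA bore on the median was not tested. Single differences ran from -0.38 for Dnajc4 to 0.39 for Dnajb9, with standard errors of 0.07 to 0.26.

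Deviations of same-numbered libraries from their group means correlated at 0.37, 0.11 and 0.16 for numbers 1, 2 and 3. Ly49G+ replicate 2 correlated about as much with Ly49I+ replicate 1 (0.12), and Ly49G+ replicate 3 more with Ly49I+ replicate 2 (0.36). The labels define no pairing, so a block by number is uncertain. With the replicate number as a block 7 of the 54 genes passed the threshold, all higher in Ly49G+: Dnajb9, Hspa9, Hspe1, Hspa4, Hsp90aa1, Dnajc2 and Dnajc21. That is 13% of the members, against 5.69% of all genes called higher in Ly49G+ in the same fit and 11.7% called in either direction. Higher in Ly49I+ were 0 members with the block, against 5.96% of all genes. The count depended on the pairs kept: it was 4 without replicate 1 of both groups (Dnajb9, Dnajc21, Hspa4, Hspa9), 1 without replicate 2 (Dnajb9) and 7 without replicate 3 (Cct5, Dnajb9, Hsp90aa1, Hspa4, Hspa5, Hspa9, Hspe1), beside 3.36%, 1.58% and 5.12% of all genes in that direction. Without the block, leaving out Ly49I+ replicate 1 gave 3 calls (Hspe1, Hspa4, Hspa9; 3.49% of all genes) and leaving out Ly49I+ replicate 2 gave 1 (Dnajb9; 1.29%). A robust prior or median-ratio scaling called Hspa9 alone (2.07% and 2.04% of all genes), and the block without an intensity trend called Hspe1 alone (2.22%). Counted by values alone, 15 members had every Ly49G+ library above every Ly49I+ library, 27.8% beside 12.5% of all genes, and 4 (Dnajb1, Dnajc4, Dnajc11, Dnajc14) had the reverse, 7.41% beside 13.4%. Ly49G+ was the higher library in all 3 numbered pairs for 23 members, 42.6% beside 23.6%, and Ly49I+ for 5, 9.26% beside 25.9%.

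**Figure D1:**
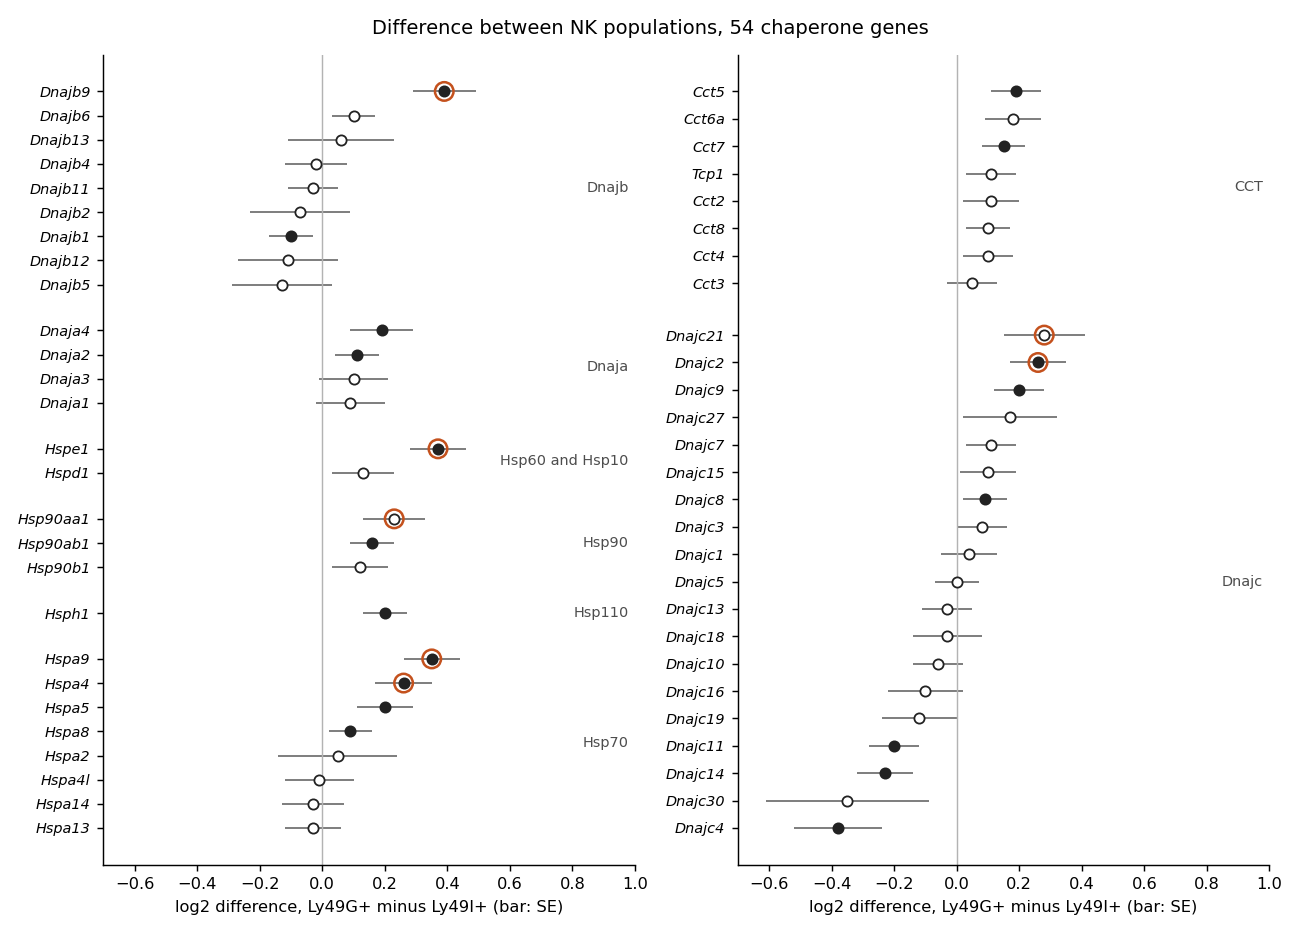
Log2 difference of Ly49G+ over Ly49I+ (x axis) for each of the 54 genes (y axis), grouped by class; bars are the standard error. Filled points mark genes whose 2 groups do not overlap (15 higher in Ly49G+, 4 in Ly49I+) and rings the 7 genes past the threshold with the replicate block; differences run from -0.38 to 0.39.

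**Figure D2:**
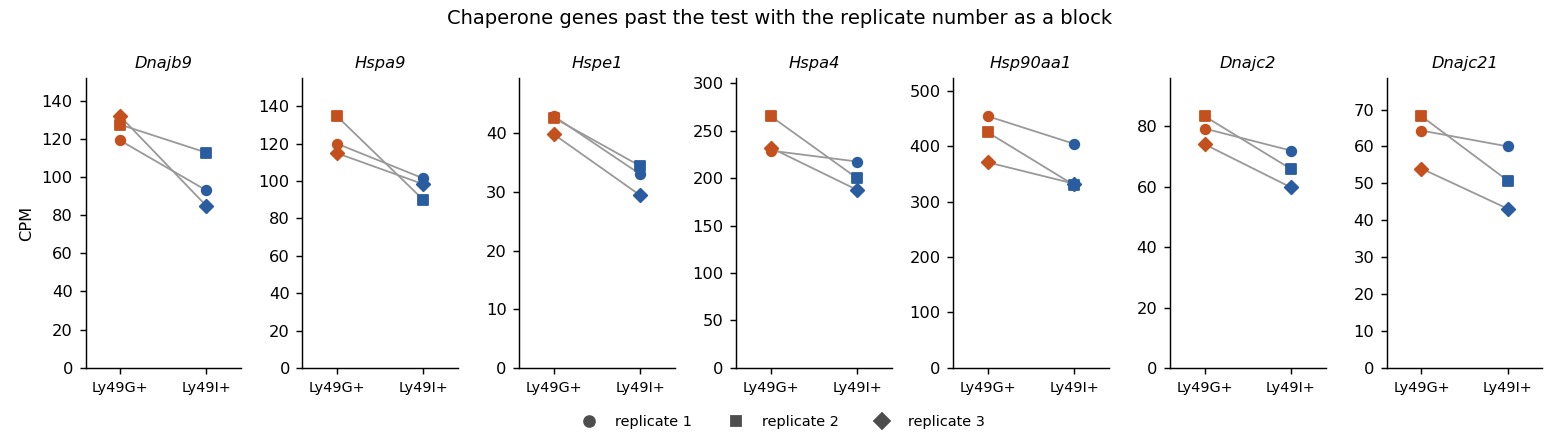
Level in CPM (y axis, from 0, one panel per gene) of the 7 members past the threshold with the replicate block, with the same-numbered Ly49G+ and Ly49I+ libraries joined by a line. Every line runs to the higher value in Ly49G+; for Hsp90aa1 and Dnajc21 the groups overlap although each pair points the same way.

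A few genes held most of the RNA. Hspa8, the constitutive cytosolic Hsp70, took 18.4% of the members' summed CPM, and with Hsp90ab1, Hsp90b1, Hspa5 and Hsp90aa1 the share reached 51.4%. Per kilobase of transcript, where levels of different genes can be compared, Hspa8 stood at a mean of 698 CPM per kb over the 6 libraries, Hsp90ab1 at 492, Hsp90b1 at 306, Hspa5 at 139, Dnajc8, a J protein of the spliceosome, at 129, and Hsp90aa1 at 118. Among the lowest was Dnajc27, a Rab-like GTPase with a J domain, at 2.73. Lengths are those of the longest principal transcript of each gene. For 13 members a shorter principal transcript would raise the level by over 1.2 times, Dnajc27 to 4.37 CPM per kb, Hspa5 to 196, Dnajc5 from 28.6 to 201 and Cct6a from 26.7 to 159. That last value rests on an annotated transcript of only 411 bases.

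**Figure D3:**
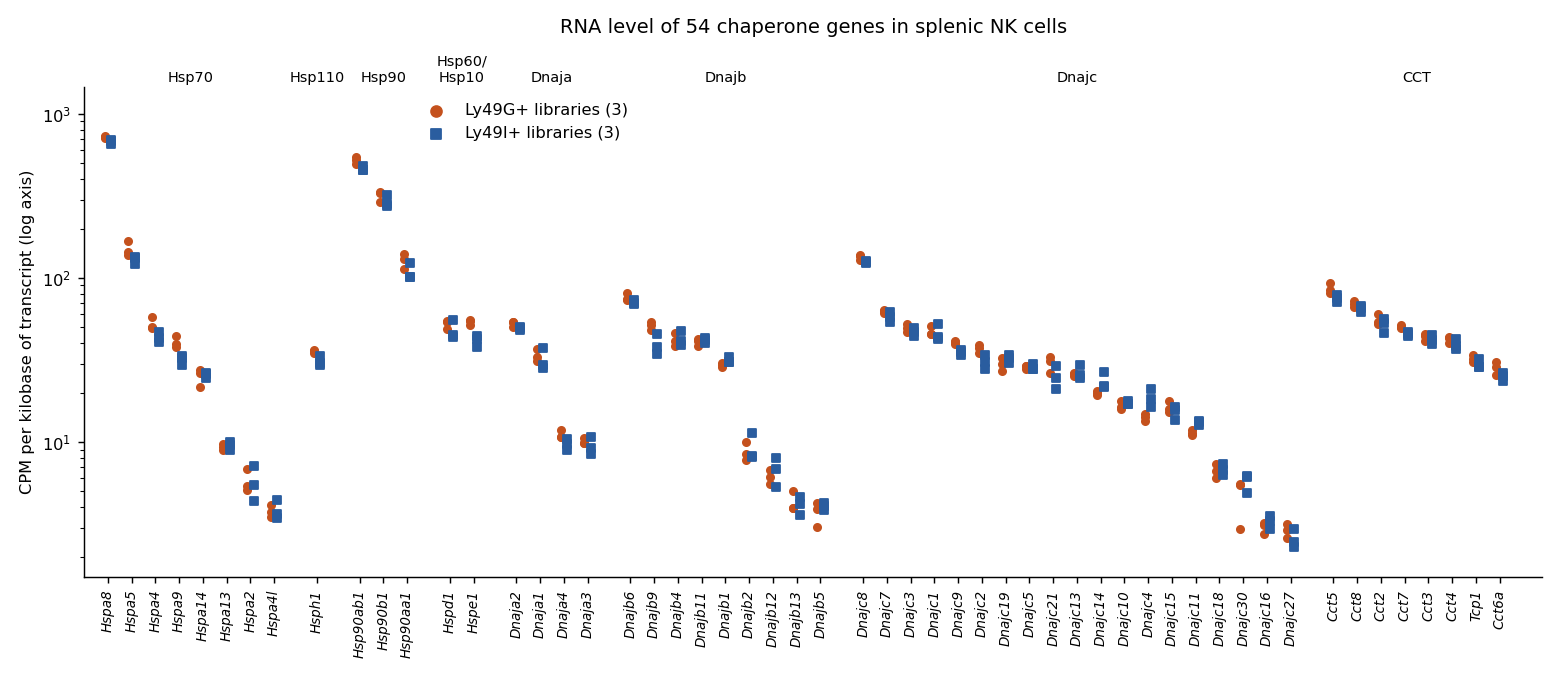
Level of each member in CPM per kilobase of transcript on a log axis, by class; each point is 1 library, coloured by population. Hspa8, Hsp90ab1 and Hsp90b1 lie highest, at means of 698, 492 and 306, and the 2 populations lie close together for nearly every gene.

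Among the Hsp70 genes, Hspa9 (gene 15526, chr18:34937414-34954351), the Hsp70 of the mitochondrial matrix, had the smallest p of all members in the fit without the block (with it, Dnajb9 had). Its level was 120.0, 134.7 and 114.9 CPM in replicates 1, 2 and 3 of Ly49G+ and 101.4, 89.9 and 98.3 CPM in those of Ly49I+. All 3 Ly49G+ libraries were above all Ly49I+ libraries, and Ly49G+ replicate 2 was the highest. The difference was 0.35 ± 0.09 (SE, 3 libraries per group; adjusted p = 0.0526 in limma), and the adjusted p was 0.0153 with the replicate block, in a range of 0.000192 to 0.246 over the alternatives. Hspa4 (gene 15525, chr11:53259814-53300479), which by sequence belongs to the Hsp110 exchange factors, was at 228.9, 265.2 and 231.9 CPM in replicates 1, 2 and 3 of Ly49G+ and 217.4, 199.8 and 187.5 CPM in those of Ly49I+. Its groups did not overlap either, with Ly49G+ replicate 2 again on top. The difference was 0.26 ± 0.09 (adjusted p = 0.126, and 0.0357 with the block; range 0.0249 to 0.442). Hsph1 (gene 15505, chr5:149616843-149636498), the heat-inducible exchange factor with a 3-unit element, was at 137.8, 136.3 and 132.2 CPM in replicates 1, 2 and 3 of Ly49G+ and 126.3, 114.6 and 112.1 CPM in those of Ly49I+, again without overlap. The difference was 0.20 ± 0.07 (adjusted p = 0.171; blocked, 0.0724).

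Hspa8 (gene 15481, chr9:40801276-40805202) was at 1723, 1742 and 1706 CPM in replicates 1, 2 and 3 of Ly49G+ and 1633, 1669 and 1560 CPM in those of Ly49I+. Its groups did not overlap, but the difference of 0.09 ± 0.07 (adjusted p = 0.489) did not pass the threshold. Near-identical copies of Hspa8 elsewhere in the genome share 63.4% of the transcript's 100-base stretches, so its count depends on how shared reads were assigned. Hspa5 (gene 14828, chr2:34772090-34776529), the ER Hsp70 known as BiP, was at 526.3, 612.2 and 504.8 CPM in replicates 1, 2 and 3 of Ly49G+ and 491.1, 444.1 and 489.8 CPM in those of Ly49I+. The lowest Ly49G+ library was just above the highest Ly49I+ library, and the difference was 0.20 ± 0.09 (adjusted p = 0.238, and 0.116 with the block). The other genes with Hspa symbols, Hspa13, Hspa14, Hspa2 and Hspa4l, had overlapping groups and differences from -0.03 to 0.05. Like Hspa4, Hspa4l belongs by sequence to the Hsp110 exchange factors. Of the 8 Hsp70 genes by symbol 0 were called without the block, beside 3.59% of all genes. With it 2 were, Hspa9 and the Hsp110 relative Hspa4, both higher in Ly49G+, 25% beside 5.69%. Their median difference was 0.069.

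The 3 Hsp90 genes had positive differences, beside 46.5% of all genes. For each of them Ly49G+ was the higher library in every numbered pair, beside 23.6% of all genes. Hsp90aa1 (gene 15519, chr12:110691036-110696395), the stress-inducible cytosolic form, was at 454.5, 425.4 and 371.2 CPM in replicates 1, 2 and 3 of Ly49G+ and 404.6, 330.1 and 332.6 CPM in those of Ly49I+. Replicate 1 was the highest in both groups and Ly49I+ replicate 1 was above Ly49G+ replicate 3, so the groups overlapped while every pair pointed the same way. The difference was 0.23 ± 0.10 (adjusted p = 0.246, and 0.0409 with the block; range 0.0101 to 0.539), and 47.5% of the transcript's 100-base stretches occur in other genes. Hsp90ab1 (gene 15516, chr17:45567778-45573261), the constitutive cytosolic form, was at 1243, 1368 and 1314 CPM in replicates 1, 2 and 3 of Ly49G+ and 1151, 1216 and 1148 CPM in those of Ly49I+. Its groups did not overlap, replicate 2 was the highest in both, and the difference was 0.16 ± 0.07 (adjusted p = 0.258). Hsp90b1 (gene 22027, chr10:86690841-86705444), the ER form Grp94, was at 925.3, 948.3 and 823.3 CPM in replicates 1, 2 and 3 of Ly49G+ and 909.3, 775.2 and 801.5 CPM in those of Ly49I+. Ly49I+ replicate 1 lay among the Ly49G+ values, and the difference was 0.12 ± 0.09 (adjusted p = 0.461). Per kilobase, Hsp90ab1 was 3.56, 4.19 and 4.61 times Hsp90aa1 in Ly49G+ and 3.71, 4.80 and 4.50 times in Ly49I+ replicates 1, 2 and 3, lowest in replicate 1 of both.

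Hspe1 (gene 15528, chr1:55088148-55091317), the Hsp10 lid of the mitochondrial chaperonin, was at 42.9, 42.6 and 39.8 CPM in replicates 1, 2 and 3 of Ly49G+ and 33, 34.4 and 29.4 CPM in those of Ly49I+. All Ly49G+ libraries were above all Ly49I+ libraries. The difference was 0.37 ± 0.09 (SE, 3 libraries per group; adjusted p = 0.0574, and 0.0173 with the block; range 0.0173 to 0.232). Its neighbour Hspd1 (gene 15510, chr1:55077833-55088243), the Hsp60 ring transcribed from the other side of the shared element, was at 133.1, 129.6 and 118.3 CPM in replicates 1, 2 and 3 of Ly49G+ and 134.8, 105.6 and 109.1 CPM in those of Ly49I+. Ly49I+ replicate 1 was the highest of all 6 libraries, so the groups overlapped, and the difference was 0.13 ± 0.10 (adjusted p = 0.477). Per kilobase, Hspe1 stood at 1.01, 1.03 and 1.05 times Hspd1 in the Ly49G+ libraries and at 0.768, 1.02 and 0.843 times in the Ly49I+ libraries, where replicate 2 alone reached the Ly49G+ range. Other genes share 22.4% of the 100-base stretches of Hspe1, among them Hspd1 itself, which lies opposite 14.5% of the Hspe1 transcript. For Hspd1 26.9% are shared, in part with a pseudogene of it.

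The Dnaja genes, which encode general J partners of Hsp70, had 4 of 4 positive differences, beside 46.5% of all genes. Of the 4, 0 were called in either fit, beside 3.59% of all genes without the block and 11.7% with it. Dnaja1 (gene 15502, chr4:40722468-40734965), a heat-inducible J protein of the cytosol, was at 206.4, 185.1 and 174.9 CPM in replicates 1, 2 and 3 of Ly49G+ and 209.7, 159.5 and 166.5 CPM in those of Ly49I+. Replicate 1 was the highest of both groups, the groups overlapped, and the difference was 0.09 ± 0.11 (adjusted p = 0.674). Dnaja2 (gene 56445, chr8:85537633-85555361), another cytosolic J protein, was at 158.1, 158.2 and 147.4 CPM in Ly49G+ and 145.6, 140.3 and 144.2 CPM in Ly49I+ libraries, without overlap, and differed by 0.11 ± 0.07 (adjusted p = 0.397). Dnaja4 (gene 58233, chr9:54698848-54716317) was at 35.5, 32.3 and 32 CPM in Ly49G+ and 31.6, 27 and 29.2 CPM in Ly49I+ libraries, also without overlap (difference 0.19 ± 0.10, adjusted p = 0.317); 52.6% of its transcript lies opposite another gene. Dnaja3, the mitochondrial J protein, was at 22.4 to 28.4 CPM with overlapping groups.

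Of the 9 Dnajb genes, Dnajb9 (gene 27362, chr12:44205897-44210068), a J protein of the ER lumen that binds the stress sensor Ire1, had the largest positive difference among all members. Its level was 119.1, 127.4 and 131.8 CPM in replicates 1, 2 and 3 of Ly49G+ and 92.9, 112.7 and 84.8 CPM in those of Ly49I+. No library of one group reached the other, with Ly49I+ replicate 2 closest to the Ly49G+ values. The difference was 0.39 ± 0.10 (SE, 3 libraries per group; adjusted p = 0.072 in limma, and 0.0108 with the block; range 0.0108 to 0.266). Dnajb1 (gene 81489, chr8:83608175-83612653), the J protein best known for its strong induction by heat, was at 90.5, 86 and 87.8 CPM in replicates 1, 2 and 3 of Ly49G+ and 98.1, 92.1 and 92.6 CPM in those of Ly49I+. It lay the other way, every Ly49I+ library above every Ly49G+ library, by -0.10 ± 0.07 (adjusted p = 0.464). Dnajb6 (gene 23950, chr5:29735898-29786478), which holds back aggregation and has a 3-unit element, was at 129.3, 117.1 and 120.2 CPM in Ly49G+ and 117.8, 110.7 and 113.1 CPM in Ly49I+ libraries and differed by 0.10 ± 0.07 (adjusted p = 0.456). Dnajb11 (gene 67838, chr16:22857845-22879634), a J partner of BiP, was at 96.4, 107.2 and 103.5 CPM in Ly49G+ and 105.3, 100.6 and 108.2 CPM in Ly49I+ libraries, overlapping, with a difference of -0.03 ± 0.08. The other Dnajb genes, Dnajb2, Dnajb4, Dnajb5, Dnajb12 and Dnajb13, overlapped and differed by -0.13 to 0.06, and the class median was -0.033, beside -0.016 for all genes.

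The 19 Dnajc genes encode J proteins tied to particular places and machines, and they were spread on both sides of 0, with 10 positive differences and a median of 0.002. Dnajc2 (gene 22791, chr5:21757266-21785264), which sits on the ribosome and recruits Hsp70 to new chains, was at 79.3, 83.4 and 74.1 CPM in replicates 1, 2 and 3 of Ly49G+ and 72, 65.9 and 59.8 CPM in those of Ly49I+. Its groups did not overlap, Ly49I+ replicate 3 being the lowest. The difference was 0.26 ± 0.09 (adjusted p = 0.151, and 0.045 with the block; range 0.045 to 0.451). Dnajc21 (gene 78244, chr15:10446763-10470568), which acts in maturation of the large ribosomal subunit, was at 64.3, 68.2 and 54 CPM in replicates 1, 2 and 3 of Ly49G+ and 60.0, 50.7 and 43.1 CPM in those of Ly49I+. Ly49I+ replicate 1 was above Ly49G+ replicate 3, yet Ly49G+ was higher in each pair. The difference was 0.28 ± 0.13 (adjusted p = 0.254, and 0.0487 with the block; range 0.0433 to 0.586). Dnajc9 (gene 108671, chr14:20384638-20388910), a histone chaperone, was at 67.7, 66.4 and 64.3 CPM in Ly49G+ and 57.6, 59.2 and 55.6 CPM in Ly49I+ libraries, without overlap (difference 0.20 ± 0.08, adjusted p = 0.18).

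On the other side of 0, Dnajc4 (gene 57431, chr19:6987911-6992591) was at 11.9, 11.3 and 12.5 CPM in Ly49G+ and 13.8, 15.4 and 17.6 CPM in Ly49I+ libraries. No library of one group reached the other, and the difference was -0.38 ± 0.14 (adjusted p = 0.171, and 0.0922 with the block). Dnajc14 (gene 74330, chr10:128804904-128819448), an ER membrane J protein, was at 86.9, 82 and 83.7 CPM in Ly49G+ and 91.2, 93.4 and 112.8 CPM in Ly49I+ libraries, where Ly49I+ replicate 3 stood above the rest (difference -0.23 ± 0.09, adjusted p = 0.213); 26.3% of its transcript lies opposite another gene. Dnajc11 (gene 230935, chr4:151933720-151981959), a mitochondrial membrane J protein, was at 37.1, 34.9 and 35.9 CPM in Ly49G+ and 42.3, 40.0 and 41.8 CPM in Ly49I+ libraries (difference -0.20 ± 0.08, adjusted p = 0.221). The ER members Dnajc3, Dnajc1 and Dnajc10 overlapped. Dnajc3 (gene 100037258, chr14:118937932-118981702), which holds an ER stress element, was at 253.5, 268.9 and 241.4 CPM in Ly49G+ and 255.7, 227.4 and 241.9 CPM in Ly49I+ libraries (difference 0.08 ± 0.08). Dnajc8 (gene 68598, chr4:132535559-132553742), the highest of the class per kilobase on the longest principal transcripts (on the shortest it is Dnajc5), was at 190.2, 192.7 and 178.6 CPM in Ly49G+ and 175.8, 172.3 and 177.9 CPM in Ly49I+ libraries, without overlap (difference 0.09 ± 0.07, adjusted p = 0.456). Dnajc5, the cysteine string protein of secretory vesicles, was at 182.7 to 196.8 CPM with a difference of 0.00 ± 0.07, and Dnajc13, which acts on endosomes, at 196.1 to 235.9 CPM (-0.03 ± 0.08). Dnajc7, which hands clients between Hsp70 and Hsp90, was at 125.5 to 148.6 CPM (0.11 ± 0.08), and the mitochondrial import proteins Dnajc15 and Dnajc19 differed by 0.10 ± 0.09 and -0.12 ± 0.12. All of these overlapped, as did Dnajc16, Dnajc18, Dnajc27 and Dnajc30, the last at 4.9 to 10.3 CPM with the widest error of all members (-0.35 ± 0.26). Dnajc9, Dnajc11, Dnajc14 and Dnajc21 were chosen for their values and named outside the rule. Without the block 0 of the 19 were called, beside 3.59% of all genes, and with it 2, both higher in Ly49G+, 10.5% beside 5.69% in that direction and 11.7% in either.

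All 8 CCT subunit genes had positive differences, from 0.05 to 0.19, beside 46.5% of all genes. Of the 8, 0 passed the threshold in either fit, beside 3.59% of all genes without the block and 11.7% with it. Cct5 (gene 12465, chr15:31590800-31601846) was at 156.9, 171.4 and 148.9 CPM in replicates 1, 2 and 3 of Ly49G+ and 139.5, 133.0 and 146.2 CPM in those of Ly49I+, without overlap. The difference was 0.19 ± 0.08 (adjusted p = 0.229; blocked, 0.127). Cct7 (gene 12468, chr6:85451505-85468477) was at 122.8, 126.4 and 121.4 CPM in Ly49G+ and 108.3, 111.2 and 114.7 CPM in Ly49I+ libraries, also without overlap (difference 0.15 ± 0.07, adjusted p = 0.26). The other subunits overlapped: differences were 0.18 ± 0.09 for Cct6a, 0.11 ± 0.08 for Tcp1, 0.11 ± 0.09 for Cct2, 0.10 ± 0.07 for Cct8, 0.10 ± 0.08 for Cct4 and 0.05 ± 0.08 for Cct3. Their positive sign was not kept throughout, since Cct2 and Cct3 stood at -0.03 and -0.02 with the block when replicate 2 of both groups was left out. Summed over the subunits, the level was 894.1, 943.2 and 855.2 CPM in Ly49G+ and 831.0, 781.2 and 857.2 in Ly49I+ replicates 1, 2 and 3, so the groups overlapped by a narrow margin. One copy of each subunit makes up a ring, but the RNA levels differed. Per kilobase the order was Cct5 at 80.6 CPM per kb, Cct8 at 67, Cct2 at 53.7, Cct7 at 48.1, Cct3 at 43, Cct4 at 40.8, Tcp1 at 31.1 and Cct6a at 26.7. This order was the same in each of the 6 libraries, although across libraries the ranges of neighbours overlapped for every step but those from Cct8 to Cct2 and from Cct4 to Tcp1. Within a library the highest subunit was 2.86 to 3.12 times the lowest, and both that ratio and the place of Cct6a rest on the transcript length taken for it. On its shortest principal transcript, of only 411 bases against 2454 for the longest, Cct6a would be the highest, at 159. Whether a transcript that short encodes the whole subunit was not checked.

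**Figure D4:**
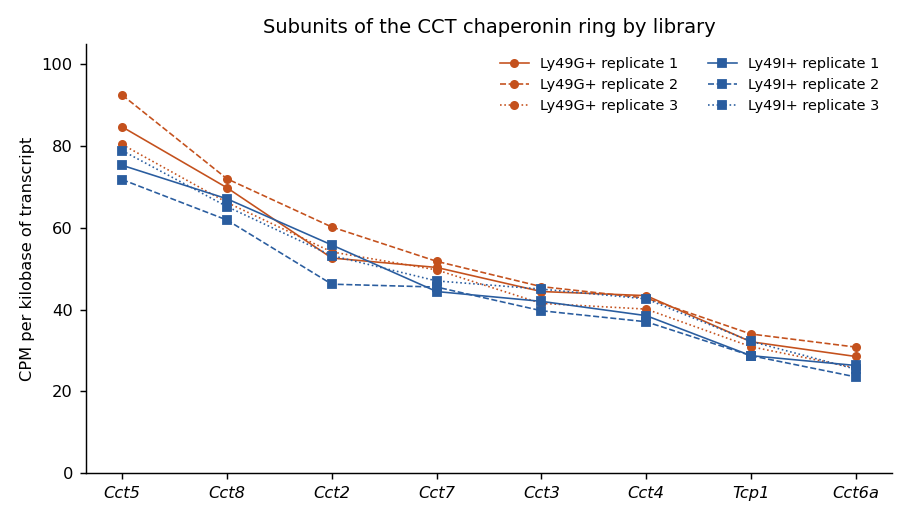
CPM per kilobase of transcript of the 8 CCT subunit genes (x axis, in order of mean level) in each of the 6 libraries, joined by lines and coloured by population. The order is the same in each of the 6 libraries, from Cct5 (mean 80.6) down to Cct6a (mean 26.7), with each gene at its longest principal transcript. Cct6a would be the highest on its shortest, an annotated transcript of only 411 bases.

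Levels were also compared by replicate number. Replicate 1 was the highest library of both groups for 12 of the 54 members, 22.2% beside 16.5% of all genes, and for 5 of the 7 measured on the list of heat-inducible members: Dnaja1, Dnajb1, Hsp90aa1, Hspd1 and Hsph1. That list also holds Hspa8, whose expression is largely constitutive and for which replicate 2 was the highest of both groups. For Hspe1 the highest replicate number differed between the groups. Replicate 3 was the highest of both groups for 4 members, 7.41% beside 18.9% of all genes, and replicate 2 for 5, 9.26% beside 9.68%. Genes of the immediate early and handling response list did not follow this order: their summed level was 3383, 3498 and 3891 CPM in Ly49G+ and 3228, 4105 and 4147 in Ly49I+ replicates 1, 2 and 3, lowest in replicate 1 of both. Whether handling, sort or library preparation moved with the numbers was not tested, since the labels do not give them by replicate.

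**Figure D5:**
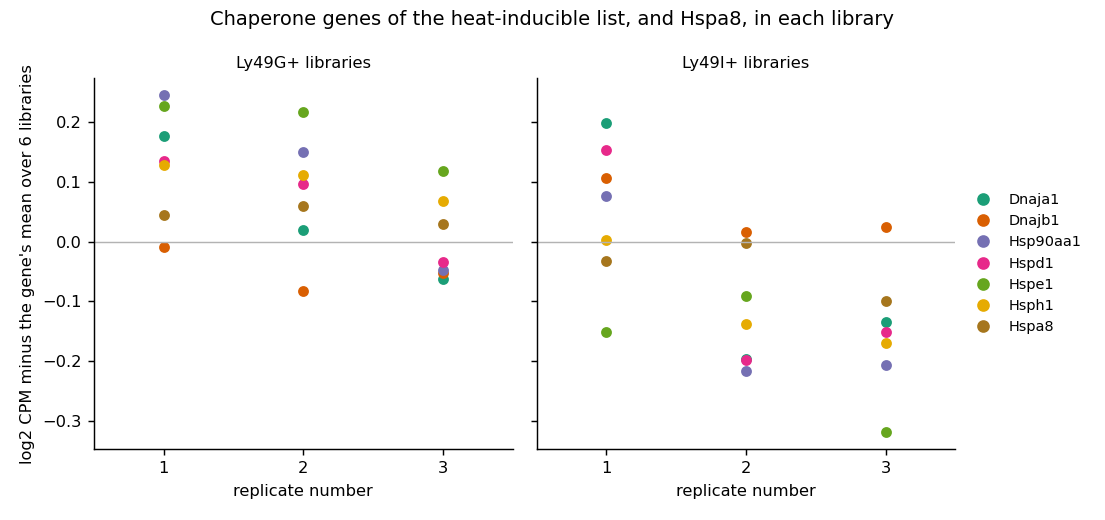
Level of the 7 measured genes of the heat-inducible list, Hspa8 included, as log2 CPM minus the gene's mean over the 6 libraries (y axis), by replicate number (x axis) in Ly49G+ (left) and Ly49I+ libraries (right); each point is 1 gene in 1 library. For Dnaja1, Dnajb1, Hsp90aa1, Hspd1 and Hsph1 replicate 1 is the highest of both groups.

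Among regulators and partners of the chaperones, the transcription factor gene Hsf1 was at 44.7, 42.6 and 44.9 CPM in replicates 1, 2 and 3 of Ly49G+ and 52.3, 53.3 and 58.8 CPM in those of Ly49I+. Every Ly49I+ library was above every Ly49G+ library, and the difference was -0.31 ± 0.08 (adjusted p = 0.073, and 0.0283 with the block; range 0.0283 to 0.273). It was the only 1 of 7 regulators past the threshold with the block, 14.3% beside 5.96% of all genes higher in Ly49I+, and 0 of 7 were without it. Of 17 measured HSF1 target genes, 0 were called without the block and 3 with it, all higher in Ly49G+ (Hsp90aa1, Hspe1 and Cacybp), 17.6% beside 5.69% of all genes. The list's median difference was 0.088, but 10 of its genes are chaperone members already counted. Over the other 7 the median was 0.011, beside -0.016 for all genes, with 1 call with the block.

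Cytosolic co-chaperones had 25 of 27 genes in the table, with 0 called without the block and 2 with it, both higher in Ly49G+, 8% beside 5.69% of all genes. Ppid, which encodes a cyclophilin that binds Hsp90, was at 79.1, 81.5 and 67 CPM in replicates 1, 2 and 3 of Ly49G+ and 62.2, 56.7 and 59.8 CPM in those of Ly49I+. Its groups did not overlap, and the difference was 0.35 ± 0.09 (adjusted p = 0.0745, and 0.0196 with the block; range 0.000538 to 0.312). Cacybp, which encodes a calcyclin-binding protein, was at 105.7, 97.5 and 89.3 CPM in replicates 1, 2 and 3 of Ly49G+ and 87.7, 79.7 and 79.3 CPM in those of Ly49I+. The difference was 0.24 ± 0.09 (adjusted p = 0.16; blocked, 0.0453; range 0.0333 to 0.407). The list's median was 0.008. Of prefoldin and CCT helpers 10 of 11 were listed and 0 were called in either fit (median 0.033, where 0 genes also had an unadjusted p under 0.05). Of 16 measured mitochondrial proteostasis genes 0 were called without the block and 2 with it, 12.5% beside 5.69% of all genes (median -0.032). These are the members Hspa9 and Hspe1. Over the 11 genes that are no members 0 were called in either fit and the median was -0.077. Of 29 measured ER genes 0 were called without the block and 1 with it, the member Dnajb9, 3.45% beside 5.69% (median 0.003). Without the block, leaving out Ly49I+ replicate 1 alone also put Hsf1 (adjusted p = 0.0479) and Ppid (0.0468) past the threshold. Beside these, the immediate early list had 25 of 29 genes in the table, with Myc called higher in Ly49G+ (difference 0.53 ± 0.13, adjusted p = 0.0442) and Dusp2 higher in Ly49I+ (-0.47 ± 0.08, adjusted p = 0.0078), each 4% of the list beside 1.82% and 1.77% of all genes. With the block 3 were called in each direction, 12% beside 5.69% and 5.96%. Myc was not called without Ly49G+ replicate 1, 2 or 3 or Ly49I+ replicate 2 (adjusted p of 0.0756 to 0.136), nor Dusp2 without Ly49G+ replicate 2 (0.0649).

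Where reads could come from more than 1 gene the values are less certain. Stretches were matched on both strands, so overlap with a gene on the opposite strand counts as shared here. The libraries were stranded, and whether strand was used in counting was not given in the sources consulted. Of the 54 members 31 share no 100-base stretch with another gene; 0 of these were called without the block and 3 with it (Hspa4, Hspa9 and Dnajc21), all higher in Ly49G+, 9.68% beside 5.69% of all genes. Every Ly49G+ library was above every Ly49I+ library for 7 of them, 22.6% beside 12.5%, and the reverse held for 3, 9.68% beside 13.4%. Their median difference was 0.049, beside -0.016 for all genes.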

How the data were processed

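RNA was sequenced in 6 libraries of sorted splenic NK cells. Per the labels' protocols, 0.4 µg of total RNA went into each stranded library, read as 100-base pairs on a HiSeq2000. The submitters' processing notes name CASAVA 1.8.2, STAR 2.3.0, limma and build mm10. The read counter, annotation and low-count filter were not given in the sources consulted. The authors deposited log2 CPM for 8520 genes. The values follow limma's voom formula, with 0.5 added to each count: solving it gave whole reads for 100% of values within 0.001 read, and library totals of 33599679 to 40892154 reads. The second-highest library of a listed gene was never below 10.0 CPM, a filter that all 54 members passed. Dnajc30 passed it only through Ly49I+ libraries. Gene numbers were named from RefSeq (8429) or GENCODE (1), and 90 stayed unnamed. Coordinates are GRCm38.p6, the assembly behind mm10; transcript lengths are those of the longest principal transcript in GENCODE.

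The groups were compared with limma 3.58.1 (R 4.3.3) on the deposited log2 values: a linear model per gene over all 6 libraries, empirical Bayes with an intensity trend, two-sided, Benjamini-Hochberg over 8520 genes at 0.05. All adjusted p-values are from limma. The fit was tested first on simulated data with changes of 0.5, 1 and 2 log2. It called 51 of 66 genes changed by 0.5, 77.3%, and 67 of 67 at each larger size. Member differences ran from -0.38 to 0.39, below the smallest size simulated. How often the fit finds differences that small was therefore not measured. Whether replicate numbers pair the libraries was checked by correlating, across all genes, the deviations of same-numbered libraries from their group means. The correlations were 0.37, 0.11 and 0.16 for numbers 1, 2 and 3, all above 0.1. The fit with the number as a block is therefore given for calls of members that it changes, and as counts for lists. Ly49G+ replicate 3 correlated more with Ly49I+ replicate 2 (0.36), and Ly49G+ replicate 2 slightly more with Ly49I+ replicate 1 (0.12). The labels do not say what a shared number means.

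Named genes are members past the threshold, the member of highest level per kilobase and the 2 of smallest p in each class, the heat-inducible and main ER members, all CCT subunits, and list genes past the threshold with Hsf1; genes outside this rule are marked or are called only with the block. The members, lists and tests were chosen with earlier results of these data known. Alternatives were the replicate block, prior, scaling, precision weights, offset, filter and leaving out each library. Protein sequence features were planned and not run. Python 3.11.15, numpy 2.4.6, pandas 2.3.3 and matplotlib 3.10.9 were used.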

Additional observations from a re-analysis of the deposited data

How the results depend on the processing

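Of the 54 members 0 were called higher in Ly49I+ under any setting run, and the median difference stayed positive. Members had at least 164 reads in every library, so depth limits the lowest of them most; 3 libraries per group limit all. All values below are from limma at an adjusted p of 0.05. With the replicate block 993 genes were called instead of 306, and 7 members instead of 0: 2 Hsp70, 1 Hsp90, 1 Hsp60 and Hsp10, 1 Dnajb and 2 Dnajc genes. In that fit the lists had 3 HSF1 target, 2 co-chaperone, 2 mitochondrial, 1 ER, 1 regulator and 6 immediate early genes called. Apart from these and the genes named in the report, the replicate block changed no call of a gene named. With a mean of at least 5 log2 CPM, 178 genes were called and 1 immediate early gene; fewer genes were tested. A robust prior or median-ratio scaling called 1 member, the Hsp70 gene Hspa9, and so 1 mitochondrial list gene. Without the intensity trend, or with precision weights, 1 immediate early gene was called instead of 2. Quantile normalization turned the sign of 3 members. The causes were not tested.

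Leaving out 1 library gave 94 to 644 for all genes called, 0 to 3 members, 0 to 2 Hsp70 genes, 0 to 1 Hsp60 and Hsp10 and 0 to 1 Dnajb genes, 0 to 1 HSF1 target, 0 to 1 co-chaperone, 0 to 2 mitochondrial, 0 to 1 ER, 0 to 1 regulator and 0 to 6 immediate early genes, and a median of 0.060 to 0.116. The highest number of calls came without Ly49I+ replicate 1 and the lowest of all genes without Ly49G+ replicate 2. The sign of the difference turned for 6, 2 and 4 members without Ly49G+ replicate 1, 2 and 3. It turned for 5, 4 and 4 members without Ly49I+ replicate 1, 2 and 3. Dnajb11 was among them: its difference ran from -0.07 to 0.01, the latter without Ly49G+ replicate 1.

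Chosen after seeing the data were the block without the intensity trend and the block without replicate 1, 2 or 3 of both groups. For all genes called, the first gave 376, with 1 member (Hspe1, of the Hsp60 and Hsp10 class), 1 HSF1 target, 1 mitochondrial and 4 immediate early genes. Without replicate 1 of both groups 741 genes and 4 members were called (2 Hsp70, 1 Dnajb, 1 Dnajc), with 1 co-chaperone, 1 mitochondrial, 2 ER and 7 immediate early genes, and Dnajb11 stood at 0.01. Without replicate 2 of both groups 261 genes and 1 member (Dnajb9, 1 ER gene) were called, the median was 0.042, and Cct2, Cct3 and Dnajc3 turned to -0.03, -0.02 and -0.01. Without replicate 3 of both groups 913 genes and 7 members were called (3 Hsp70, 1 Hsp90, 1 Hsp60 and Hsp10, 1 Dnajb, 1 CCT), with 4 HSF1 target, 3 co-chaperone, 2 mitochondrial, 2 ER and 10 immediate early genes, and the median was 0.137. The sign of the difference turned for 9, 5 and 3 members without replicate 1, 2 and 3 of both groups.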
